A study of Mus musculus with 3 samples.

Results

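The effect of a tumour on muscle that carried a control vector was read from a pair of arrays, C26 AAV9-scrambled-shRNA against Sham AAV9-scrambled-shRNA, which are 2 of the 3 arrays of the series. All mice were male, of the strain labelled CD2 (CD2F1 in the methods), and 10 weeks old. C26 mice had received 500000 cells of the C26 colon adenocarcinoma line under the skin of each flank, and Sham mice had received saline. In both groups an adeno-associated virus of serotype 9 (AAV9), which carries genes into muscle fibres, had delivered a scrambled short hairpin RNA and a fluorescent marker to the tibialis anterior, at 1e+11 vector genomes per muscle and 2 weeks before the tumour cells. The muscles were taken 26 days after inoculation, and the RNA of 3 mice was combined on 1 array. The series also holds a C26 array whose vector carried FoxP1-shRNA, and its values are given beside the others where they help to read a gene. In the study's methods the marker of that vector is mCherry and that of the scrambled vector is GFP. The FoxP1-shRNA array thus differs in marker as well as in hairpin.

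Each gene had 1 value per array, an expression value on the log2 scale, so that a difference of 1 between arrays is 2-fold. A difference here is C26 minus Sham, both with scrambled-shRNA, and all 25206 genes on the arrays were compared. With 1 array a group, differences between mice were averaged into the pool, no spread between replicates was available and no test was made. A gene was counted as different when it was at least 2-fold higher or lower, and a gene list was called higher or lower on balance when its median difference was at least 0.5. By this rule 3.34% of all genes were higher in C26 and 4.33% were lower, and the median difference over all genes was 0.03. Higher genes made up 43.6% of those past 2-fold, and 23.8% when each array was centred on 10 reference genes, which moved every difference by -0.22. The 2-fold count depended on signal, since 0.307% of genes with a mean value up to 2 were higher in C26, against 10.4% of those between 8 and 10. For mean values between 6 and 8 the shares were 7.51% higher and 8.01% lower. Counts in the lists below are to be read beside these shares, since a few members past 2-fold can be near them.

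The label of the tissue was matched by its markers. The 15 muscle fibre markers had a median value of 11.5 in C26 and 11.9 in Sham, and 3 of them, Pgam2, Pvalb and Mylpf, were at least 2-fold lower in C26. Only 1 of the 15 had a difference above 0, and their summed linear signal was 38876 in C26 and 53350 in Sham. None of 13 epithelial and carcinoma markers reached 2-fold, and their summed signal on the linear scale was 172 in C26 and 169 in Sham.

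Skeletal muscle of a tumour-bearing host can be exposed to circulating cytokines, to adrenal glucocorticoids and to reduced food intake, each of which acts through its own set of genes. Interferon gamma, released by T cells and natural killer cells, switches on large GTPases that attack pathogen vacuoles, the proteins that present antigen, and chemokines that attract more lymphocytes. Glucocorticoids act through a nuclear receptor that raises metallothioneins, Fkbp5 and regulators of insulin signalling in muscle, and interleukin-6 acts through STAT3 to raise acute phase proteins.

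Of 78 gene lists, 1 of which is the reference genes used for centring, 11 were on balance lower in C26 and 7 higher. The other 60, that one included, were neither. Of the 66 lists written first, 7 were lower, 4 higher and 55 neither. The other 12, neutrophil and T cell markers among them, were added after the values had been seen, so their calls are no independent result. The lower lists were led by interferon genes, tendon markers, antigen presentation and markers of T cells and natural killer cells. The higher ones included glucocorticoid response genes, immediate early genes and neutrophil markers. Among genes above the median of an array, neutrophil markers had a median of 2.33. The medians were 1.56 for the glucocorticoid response and 1.03 for immediate early genes. A gene passes that filter through either array, so genes high only in C26 are kept and these medians cannot rank the lists.

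**Figure D1:**
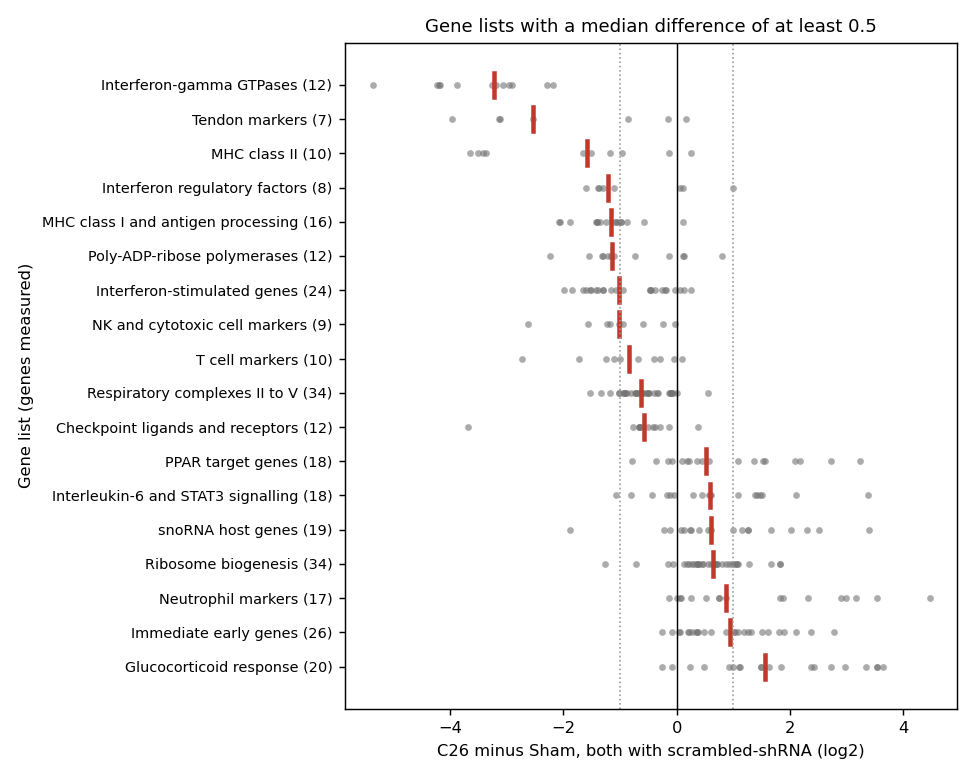
Differences between C26 and Sham, both with scrambled-shRNA (horizontal axis, log2), of the members of each gene list with a median of at least 0.5 in size. Grey points are genes, red bars are list medians and dotted lines mark 2-fold. All 12 interferon-gamma GTPases lie left of the lower line, and 15 of 20 glucocorticoid response genes lie at or right of the upper one.

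Interferon-inducible GTPases had the lowest median of any list. All 12 measured members were at least 2-fold lower in C26, against 4.33% of all genes, with a median difference of -3.23. Igtp, an immunity-related GTPase, was the lowest of the genes named here: its value was 4.23 in C26, 3.87 in C26 with FoxP1-shRNA and 9.59 in Sham, a 41.3-fold difference between C26 and Sham. Iigp1, of the same family, had values of 5.80 in C26, 4.27 in C26 with FoxP1-shRNA and 10.00 in Sham. Irgm2, a regulator of these GTPases, had 4.95, 4.75 and 9.13 in the same order. Both C26 arrays were low for these genes and the Sham array was high. With 1 Sham pool, a difference made by the tumour and a high level in that pool cannot be told apart.

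The guanylate-binding proteins, which assemble on the same vacuoles, showed the same order of arrays. Gbp3 was 2.39 in C26, 2.13 in C26 with FoxP1-shRNA and 6.62 in Sham. Gbp10 was 7.02 in C26, 6.14 in C26 with FoxP1-shRNA and 10.89 in Sham. The smallest difference on the list was that of Gbp9, at -2.19. The Gbp genes are close relatives in a cluster, so probes may be shared between them, and single values of this family are uncertain.

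Promoters of these genes are shown because 7 of the 8 with a promoter entry held the interferon-stimulated response element, a site bound by interferon regulatory factors. The element was searched as TTTCNNTTTC on both strands, where N is any base, in RefSeq promoters of build GRCm38.p6 that run from 250 bases before to 50 bases after the start of the gene. It was found in 3.36% of all 17452 promoters. Ifi47 was the member without a match. The stretches below lie before the start, are written in the direction of the gene, and have the element in capitals. They are Igtp (chr11:58199497-58199555, + strand), Irgm2 (chr11:58214888-58214947, + strand), Irgm1 (chr11:48871421-48871475, - strand), Gbp3 (chr3:142559974-142560033, + strand), Gbp7 (chr3:142530258-142530317, + strand), Gbp2 (chr3:142620579-142620638, + strand) and Gbp5 (chr3:142496744-142496803, + strand).
Igtp: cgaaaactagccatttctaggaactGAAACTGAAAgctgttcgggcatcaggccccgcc
Irgm2: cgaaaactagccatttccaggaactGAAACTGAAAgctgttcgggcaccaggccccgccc
Irgm1: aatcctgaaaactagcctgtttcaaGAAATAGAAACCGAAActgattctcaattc
Gbp3: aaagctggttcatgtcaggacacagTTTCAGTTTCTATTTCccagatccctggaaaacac
Gbp7: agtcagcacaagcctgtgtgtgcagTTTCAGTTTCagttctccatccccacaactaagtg
Gbp2: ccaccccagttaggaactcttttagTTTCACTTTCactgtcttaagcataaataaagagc
Gbp5: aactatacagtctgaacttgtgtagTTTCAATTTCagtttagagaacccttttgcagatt

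In Igtp, Irgm1 and Gbp3 the first match began 34, 30 and 45 bases before the start, and in Gbp5 it began 165 bases before it. Irgm1 and Gbp3 each held 2 overlapping matches. Across all promoters, a match was found in 13.7% of those of genes with a difference of -3 or lower, 7 of 51. The share was 7.14% between -3 and -2, 6% between -2 and -1, and 3.14% between -0.5 and 0.5. The lowest group includes Igtp, Irgm2 and Gbp3, shown above for their match. Other elements were searched too. The gamma-activated element (TTCNNNGAA) and the antioxidant response element (TGACNNNGC) were each found in 10 of those 51 promoters, 19.6%. Over all promoters their shares were 7.99% and 13.4%. Among genes over 2 in difference the share was 6.25%, 7 of 112. With the interferon and antigen presentation lists left out, 4.97% of genes at least 2-fold lower in C26 held a match, against 3.23% of all promoters outside those lists. A match is a description of the letters and does not show that a factor binds there.

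**Figure D2:**
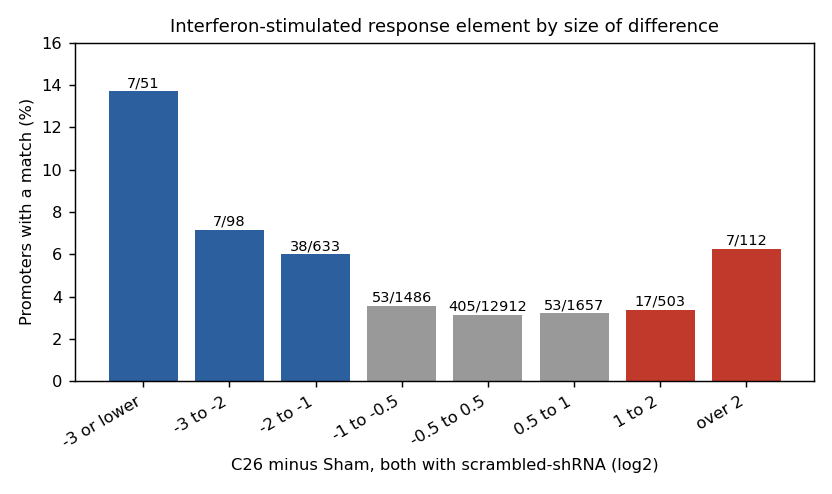
Share of promoters (vertical axis, percent) with a match to the interferon-stimulated response element, for genes grouped by their difference between C26 and Sham (horizontal axis, log2). Numbers over the bars are promoters with a match and promoters in the group, and the share is 13.7% in the group at -3 or lower and 3.14% in the middle group.

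Of 18 interferons, receptors and signal carriers 5 were at least 2-fold lower in C26 and none was higher, with a median of -0.28, which is called neither. Stat2, which carries the signal of type I interferons, was 4.93 in C26, 4.97 in C26 with FoxP1-shRNA and 6.58 in Sham. Irf1, an activator of antigen presentation genes, was 4.92 in C26, 5.00 in C26 with FoxP1-shRNA and 6.51 in Sham. Of 8 interferon regulatory factors, 5 were at least 2-fold lower in C26 (Irf1, Irf5, Irf7, Irf8 and Irf9), and Irf2, Irf3 and Irf4 differed by 0.06, 0.12 and 0.998. The messenger of interferon gamma itself, Ifng, was below the median of each array, at 3.39 in C26, 3.52 in C26 with FoxP1-shRNA and 3.48 in Sham. Its receptor chains were split: Ifngr2 differed by -1.29 and Ifngr1 by -0.15.

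Of 24 interferon-stimulated genes, 12 were at least 2-fold lower in C26 and none was higher, with a median of -1.02. Xaf1, a pro-apoptotic protein, was 4.55 in C26, 4.86 in C26 with FoxP1-shRNA and 6.55 in Sham. The antiviral Oasl2 differed by -1.86, and the RNA sensors Ifih1 and Ddx58 by -1.53 and -1.52. No member of this list was as low as Gbp9, the GTPase with the smallest difference. Among poly-ADP-ribose polymerases 7 of 12 were at least 2-fold lower, led by Parp14 at -2.23 and Parp9 at -1.56, which pair in the interferon response, and Parp1, the DNA repair enzyme, was at -1.11.

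Antigen presentation followed the same order of arrays. Of 10 MHC class II genes 7 were at least 2-fold lower in C26, with a median of -1.58. Cd74, the invariant chain that guards the class II groove, was 6.82 in C26, 6.64 in C26 with FoxP1-shRNA and 10.34 in Sham. H2-Aa, the alpha chain of one class II molecule, was 4.44 in C26, 4.39 in C26 with FoxP1-shRNA and 8.08 in Sham. The class II activator Ciita differed by -1.18, and H2-Oa, H2-Ob and H2-Eb2 differed by 0.25, -0.13 and 0.17 at values of 3.42 or lower on all 3 arrays.

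Of 16 genes of MHC class I and its peptide supply, 11 were at least 2-fold lower, with a median of -1.17. Tap1, a chain of the pump that brings peptides into the endoplasmic reticulum, was 5.54 in C26, 5.19 in C26 with FoxP1-shRNA and 7.60 in Sham. B2m, the shared light chain, was 9.95 in C26, 9.62 in C26 with FoxP1-shRNA and 11.03 in Sham. Nlrc5, the class I activator, differed by -1.89, the immunoproteasome subunit Psmb9 by -1.24 and the proteasome cap Psme1 by -1.41. Class I genes resemble each other, so values of H2-D1, H2-K1, H2-Q4, H2-T22 and H2-T23, which lay between -2.09 and -1.09, may share probes.

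Chemokines went both ways. Of 20 measured, 6 were at least 2-fold lower in C26 and 2 were higher. Cxcl9, an attractant of activated T cells, was 3.36 in C26, 2.54 in C26 with FoxP1-shRNA and 7.55 in Sham, and Cxcl10, which binds the same receptor, differed by -1.91. Ccl5 was 4.33 in C26, 3.78 in C26 with FoxP1-shRNA and 8.26 in Sham. On the other side Cxcl13, an attractant of B cells, was 9.82 in C26, 8.38 in C26 with FoxP1-shRNA and 8.25 in Sham. Cd274, which encodes the checkpoint ligand PD-L1, was 5.22 in C26, 4.75 in C26 with FoxP1-shRNA and 8.91 in Sham, and none of the other 11 checkpoint genes measured reached 2-fold.

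**Figure D3:**
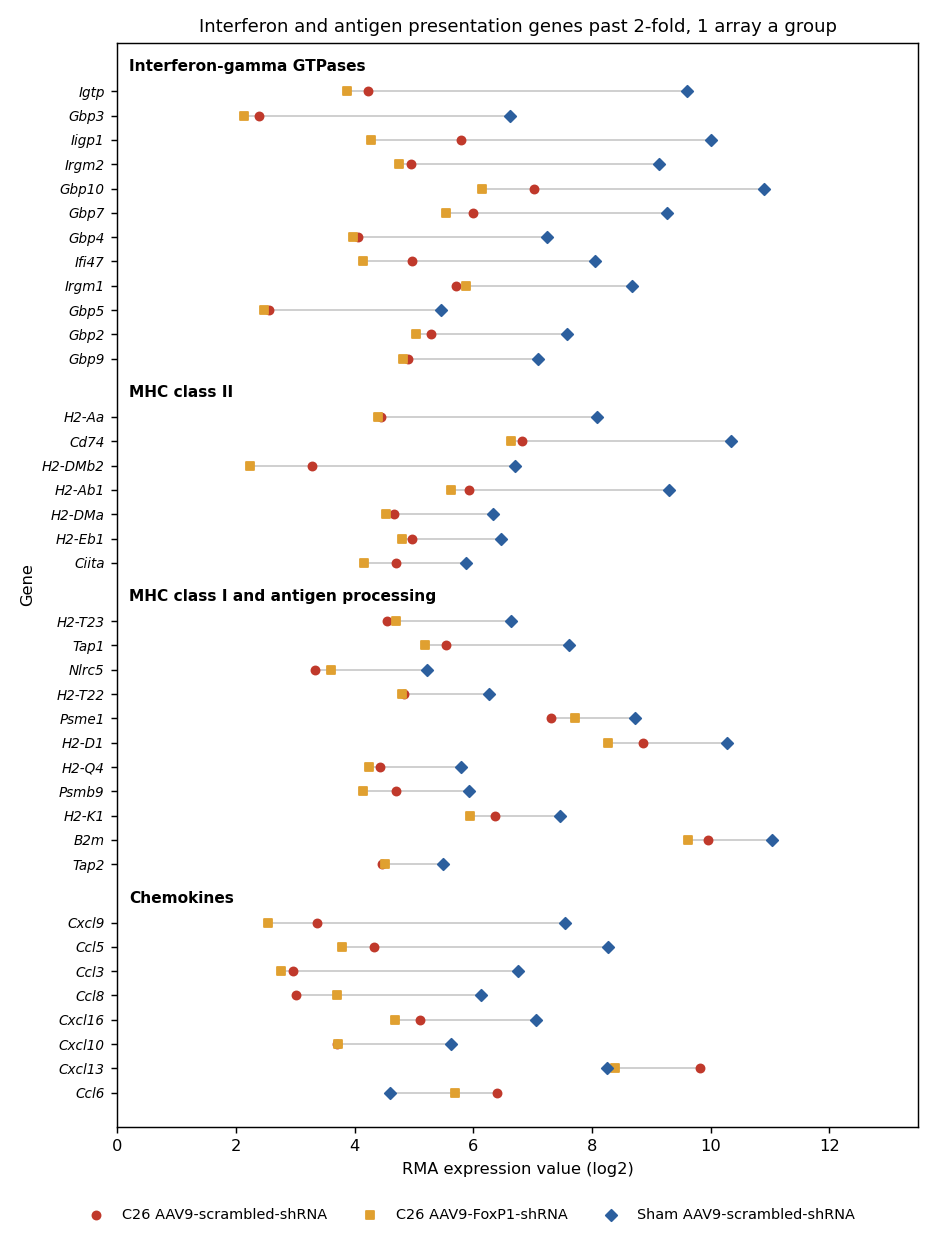
Expression values (horizontal axis, log2) on the arrays of C26 with scrambled-shRNA (red circles), C26 with FoxP1-shRNA (yellow squares) and Sham with scrambled-shRNA (blue diamonds) for members of 4 lists that were at least 2-fold different. Igtp lies at 4.23, 3.87 and 9.59, and Cxcl13 and Ccl6 are the genes with C26 right of Sham.

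Markers of T cells and of natural killer cells were on balance lower in C26, and those of B cells were called neither. The T cell list was added after the values had been seen. Of 10 T cell markers 5 were at least 2-fold lower in C26, and their summed linear signal was 160 in C26, 113 in C26 with FoxP1-shRNA and 281 in Sham. Cd3g was 2.31 in C26, 2.53 in C26 with FoxP1-shRNA and 5.04 in Sham, whereas Cd3e was 5.68 in C26 and 6.09 in Sham. Of 9 natural killer and cytotoxic markers 5 were lower, with summed signals of 78, 79 and 206 in the same order of arrays. Nkg7, a protein of cytotoxic granules, was 3.88 in C26 and 6.51 in Sham. Of 9 B cell markers 1 was lower, the immunoglobulin heavy chain Ighm, at 5.79 in C26, 4.36 in C26 with FoxP1-shRNA and 9.05 in Sham. Of the segments that build receptors and antibodies, 17 of 75 joining segments were lower and none higher, against 4.33% of all genes lower, while 2 of 262 variable segments were lower and 2 higher.

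Myeloid markers were mixed. Among 16 macrophage and monocyte markers 4 were at least 2-fold lower (Ccr2, Fcgr1, Adgre1 and C1qc) and 3 higher (Cd68, Cd14 and Cd163), and the summed signal was 1191 in C26, 755 in C26 with FoxP1-shRNA and 1090 in Sham. Ccr2, the receptor by which monocytes leave blood for tissue, differed by -2.53. Of 10 dendritic cell markers 1, Cd209a, was lower. Log2 array values have no zero, so no marker could be called absent. Their part in the interferon result was not tested, and in whole muscle fewer cells of a type and less RNA per cell cannot be told apart.

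Neutrophil markers were higher in C26. Of 17 measured, 8 were at least 2-fold higher and none was lower, against 3.34% of all genes, and the summed signal was 592 in C26, 416 in C26 with FoxP1-shRNA and 161 in Sham. Retnlg, a secreted protein of granulocytes, was 5.97 in C26, 4.43 in C26 with FoxP1-shRNA and 1.501 in Sham. S100a8, a calcium-binding alarmin, was 6.55 in C26, 6.14 in C26 with FoxP1-shRNA and 3.01 in Sham. Stfa2l1, a stefin of granulocytes, the collagenase Mmp8, and the receptors Il1r2 and Cxcr2 were 3.16, 2.99, 2.33 and 1.82 higher. The mature-neutrophil antigen Ly6g and the granule enzyme Mpo differed by -0.14 and 0.08.

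Acute phase genes were split between a few with large differences and many without. Of 21, 7 were at least 2-fold higher in C26 and none was lower, with a median of 0.21. The largest difference was that of Lcn2, lipocalin 2, which binds bacterial iron carriers, at 12.19 in C26, 11.75 in C26 with FoxP1-shRNA and 5.01 in Sham. Serpina3n, a protease inhibitor, was next, at 11.11 in C26, 10.95 in C26 with FoxP1-shRNA and 6.47 in Sham, a 24.8-fold difference between C26 and Sham. Saa1, serum amyloid A, was 5.94 in C26, 3.49 in C26 with FoxP1-shRNA and 1.79 in Sham. Saa3, another serum amyloid A gene, differed by 2.85, haptoglobin, Hp, by 2.41, the endotoxin carrier Lbp by 1.82 and the inhibitor Itih4 by 1.25. Among members above the median of an array, the list had a median of 2.11. That filter keeps members that pass through C26 alone, such as Saa1, and so raises the median by itself. The liver products Crp, Fga, Fgb and Fgg differed by 0.42, 0.10, 0.21 and 0.02, at values of 2.67 or lower on all arrays.

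The genes of interleukin-6 and STAT3 signalling had a median of 0.58, with 7 of 18 at least 2-fold higher and 1 lower, and centring on reference genes took the median to 0.36. Il6ra, the ligand-binding receptor chain, was 9.05 in C26, 8.71 in C26 with FoxP1-shRNA and 5.67 in Sham. Stat3 was 9.94 in C26, 9.79 in C26 with FoxP1-shRNA and 8.56 in Sham, and its feedback inhibitor Socs3 was 6.84, 7.35 and 4.73 in that order. Osmr, the receptor of oncostatin M, differed by 1.42, the signalling chain Il6st by 0.61 and the cytokine Il6 by 0.58.

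The glucocorticoid response list was higher on balance. Of 20 genes, 15 were at least 2-fold higher in C26, none was lower, and the median difference was 1.56. Fkbp5, a chaperone of the steroid receptor, was 9.91 in C26, 9.31 in C26 with FoxP1-shRNA and 6.57 in Sham. Ddit4, an inhibitor of mTORC1, was 9.27 in C26, 8.43 in C26 with FoxP1-shRNA and 5.73 in Sham. Map3k6 was 7.92 in C26, 6.79 in C26 with FoxP1-shRNA and 4.38 in Sham. For these genes the FoxP1-shRNA array lay between the others and nearer to C26.

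The receptor gene Nr3c1 itself was 8.15 in C26, 8.10 in C26 with FoxP1-shRNA and 8.40 in Sham. The transcription factors Klf15 and Cebpd were 2.43 and 2.37 higher, glutamine synthetase Glul 1.85, and Pik3r1, the regulatory subunit of phosphoinositide 3-kinase, 1.49. Angptl4, an inhibitor of lipoprotein lipase that PPARs also raise, showed another order of arrays: it was 7.92 in C26, 4.98 in C26 with FoxP1-shRNA and 5.20 in Sham. Hsd11b1, which makes active glucocorticoid, likewise lay close to Sham with FoxP1-shRNA, at 7.05 in C26, 5.69 in C26 with FoxP1-shRNA and 5.96 in Sham.

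The metallothioneins Mt1 and Mt2, small proteins that bind zinc and belong to the same list, were among its members with the largest differences. Mt2 was 11.55 in C26, 11.13 in C26 with FoxP1-shRNA and 7.91 in Sham, a 12.5-fold difference between C26 and Sham. Mt1 was 12.45 in C26, 12.25 in C26 with FoxP1-shRNA and 9.48 in Sham. The zinc importer Slc39a14 had the largest difference of the zinc genes, at 9.92 in C26, 8.46 in C26 with FoxP1-shRNA and 5.49 in Sham. Mt3, known as the neuronal form, went the other way, at 3.93 in C26 and 5.00 in Sham. Metallothionein genes are known to carry sites of the metal-responsive factor MTF1, searched as TGCNCNC on both strands, and their promoters are shown for that reason with the matches in capitals. Mt2 held 6 matches in its 300 bases, a number reached by 0.229% of promoters, and Mt1 held 3, reached by 8.3%. Mt3, which was lower in C26, also held 3. At least 1 match was found in 54.2% of all promoters, so a match alone does not set these genes apart. The 200 bases before the start are given for Mt2 (chr8:94172418-94172617, + strand) and Mt1 (chr8:94178889-94179088, + strand).
Mt2: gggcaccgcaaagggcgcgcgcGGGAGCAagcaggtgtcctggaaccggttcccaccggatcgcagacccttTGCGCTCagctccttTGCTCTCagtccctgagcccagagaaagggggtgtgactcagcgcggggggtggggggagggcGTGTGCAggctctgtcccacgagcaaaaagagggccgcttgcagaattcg
Mt1: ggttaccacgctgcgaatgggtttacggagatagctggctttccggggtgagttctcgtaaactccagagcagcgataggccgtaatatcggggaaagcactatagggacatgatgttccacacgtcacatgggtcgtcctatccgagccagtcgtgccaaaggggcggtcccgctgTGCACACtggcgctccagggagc

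A glucocorticoid response element, searched as ACANNNTGT on both strands, was found in 6.18% of promoters of genes at least 2-fold higher in C26, 3.96% of those at least 2-fold lower and 6.09% of all. Among genes above the median of an array these shares were 5.84%, 3.99% and 4.24%. Among genes at least 8-fold higher the element was found in 6 of 30 promoters, 20%, a small set picked from many elements and groups searched. In the same 30 promoters the E-box of myogenic factors (CAGCTG) was found in 7, against 15.8% of all promoters. In the glucocorticoid response list the glucocorticoid element was found in 3 of 16 promoters. These windows are short, and the receptor is known to act from distant sites.

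Immediate early genes, which respond within minutes to growth factors, stress or contraction, were higher on balance. Of 26, 13 were at least 2-fold higher in C26 and none was lower, with a median of 0.95. Fos was 7.02 in C26, 5.10 in C26 with FoxP1-shRNA and 4.64 in Sham. Btg2, an antiproliferative factor, was 8.11 in C26, 6.84 in C26 with FoxP1-shRNA and 5.33 in Sham, and the nuclear receptor Nr4a3 was 6.92, 5.20 and 4.81. For Fos and Nr4a3 the FoxP1-shRNA array was close to Sham. Nr4a1 and Jun differed by -0.25 and 0.26, so the members did not move together.

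Genes that serve the making of ribosomes were higher in C26, with a median of 0.63 over 34 genes, of which 8 were at least 2-fold higher and 1, the pseudouridine synthase Dkc1, lower. Nop14, a factor of the small subunit, was 8.54 in C26, 7.68 in C26 with FoxP1-shRNA and 6.72 in Sham, and Taf1d, a part of the RNA polymerase I initiation factor, was 6.65, 5.53 and 4.83. Of 34 ribosomal protein genes none was 2-fold higher, and the 2 that were lower were Rpl6 and Rpl3l, the striated muscle form of Rpl3. The median value of these 34, out of 50 listed, was 4.14 in C26 and 4.09 in Sham. The array medians were 4.05 and 4.06, and dim genes seldom reached 2-fold, so a count of none is a weak statement here. Genes that host small nucleolar RNAs in their introns had a median of 0.60, with 8 of 19 at least 2-fold higher and 1, Snhg14, lower. Snhg12 was 7.27 in C26, 5.18 in C26 with FoxP1-shRNA and 3.88 in Sham, and Snhg1 was 7.83, 6.22 and 5.32. The medians of these lists were 0.41 for ribosome biogenesis and 0.38 for the host genes when the arrays were centred on reference genes, which is below the size called.

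**Figure D4:**
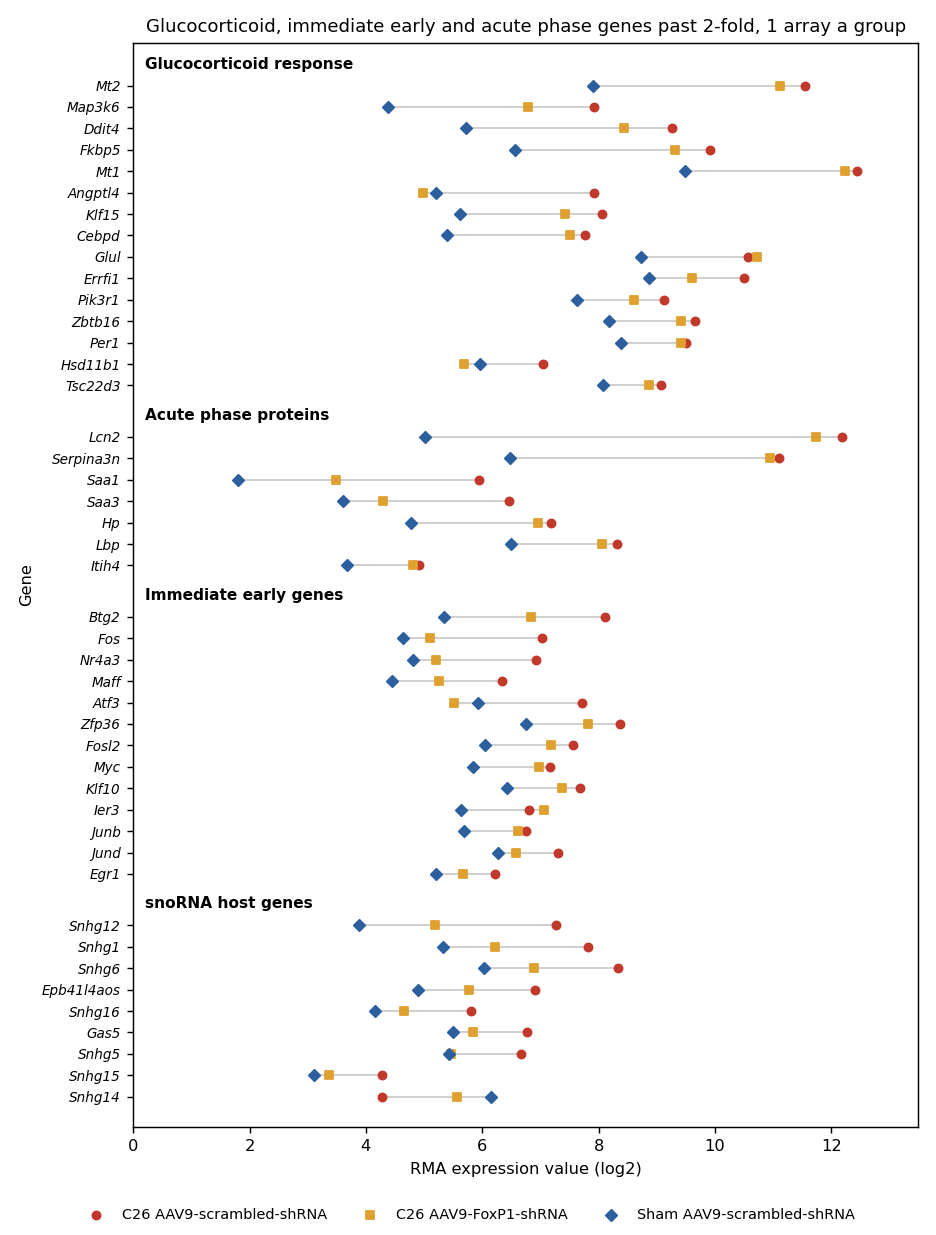
Expression values (horizontal axis, log2) on the arrays of C26 with scrambled-shRNA (red circles), C26 with FoxP1-shRNA (yellow squares) and Sham with scrambled-shRNA (blue diamonds) for members of 4 lists that were at least 2-fold different. Serpina3n and Mt1 lie close together on both C26 arrays, and Fos lies at 7.02, 5.10 and 4.64.

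Among regulators of protein synthesis, Eif4ebp1, the inhibitor of cap-dependent translation, was 9.90 in C26, 9.58 in C26 with FoxP1-shRNA and 7.14 in Sham. Sesn1, a sestrin that restrains mTORC1, was 9.48 in C26, 9.07 in C26 with FoxP1-shRNA and 6.29 in Sham, and Mtor itself differed by 1.59. Ddit4l, a relative of Ddit4, went the other way, at 6.84 in C26, 8.41 in C26 with FoxP1-shRNA and 9.10 in Sham. Of 24 amino acid transporters 6 (25%) were at least 2-fold higher in C26 and 1 (4.17%) lower, against 3.34% and 4.33% of all genes. The lower count is near that share. Slc7a8, a carrier of neutral amino acids, was 9.82 in C26, 8.20 in C26 with FoxP1-shRNA and 6.63 in Sham, while the glutamine carrier Slc38a3 differed by -1.90.

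Insulin and insulin-like growth factor genes were higher in 8 of 25 cases (32%) and lower in 2 (8%), against 3.34% and 4.33% of all genes. Irs2, an adaptor of the insulin receptor, was 8.57 in C26, 7.18 in C26 with FoxP1-shRNA and 6.15 in Sham, and Igf1r differed by 1.74. The binding proteins were opposed: Igfbp3 was 8.32 in C26, 7.38 in C26 with FoxP1-shRNA and 5.73 in Sham, and Igfbp5, the main one made by muscle, was 6.42, 7.27 and 10.03. Grb14, an inhibitor of the insulin receptor, differed by -2.79.

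Fat handling lists were called neither, although single genes had large differences. Genes of fatty acid uptake and beta-oxidation had a median of 0.35, with 4 of 26 higher and 1 lower, and those of lipid and sterol synthesis a median of -0.21, with 3 of 30 higher and 4 lower. Of 17 lipid droplet proteins 6 were at least 2-fold higher in C26 and 1 lower, against 3.34% and 4.33% of all genes, with a median of 0.45. Of 11 adipocyte markers 2 were higher, Lpl and Cidec, and none was lower, and their summed signal was 3079 in C26, 2297 in C26 with FoxP1-shRNA and 1963 in Sham. Their part in the fat handling values was not tested. Plin5, which ties droplets to mitochondria, was 8.38 in C26, 6.41 in C26 with FoxP1-shRNA and 6.29 in Sham, and Plin2 was 9.65, 8.15 and 8.13. Acot2, a mitochondrial thioesterase, was 12.16 in C26, 9.40 in C26 with FoxP1-shRNA and 8.92 in Sham, and shares much of its sequence with Acot1, so its value is uncertain. Of 18 PPAR target genes 8 were higher and none lower, with a median of 0.51 that fell under 0.5 with quantile normalization, cyclic loess or centring on reference genes. Acss1, which makes acetyl-CoA from acetate in mitochondria, was 10.86 in C26, 8.96 in C26 with FoxP1-shRNA and 7.03 in Sham.

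Mitochondrial complexes II to V were on balance lower. They had a median of -0.62, with 5 of 34 at least 2-fold lower in C26 and none higher, among them Cyc1 at -1.54 and Cox7a1 at -1.34. The citric acid cycle had a median of -0.47 and was called neither, with Idh3a at -1.38 and Idh2, the NADP-linked form, at 1.57. Pdp1, the phosphatase that activates pyruvate dehydrogenase, was 5.63 in C26, 7.75 in C26 with FoxP1-shRNA and 8.59 in Sham, and its opponent, the kinase Pdk4, was 11.99, 11.47 and 10.63. Perm1, a muscle regulator of mitochondrial genes, differed by -2.07 and Ppargc1b by -1.40.

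Enzymes of creatine and purine nucleotides gave one of the clearest exchanges between related genes. Of 27, 7 were at least 2-fold lower in C26 and 1 was higher. Ampd1, the muscle form of AMP deaminase, was 8.48 in C26, 10.28 in C26 with FoxP1-shRNA and 10.84 in Sham. Ampd3, known as the erythrocyte form, was 9.13 in C26, 7.65 in C26 with FoxP1-shRNA and 5.46 in Sham. Gamt, the last enzyme of creatine synthesis, was 3.91 in C26, 5.81 in C26 with FoxP1-shRNA and 7.43 in Sham, and the mitochondrial creatine kinase Ckmt2 and adenylate kinase Ak1 differed by -1.69 and -1.62.

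Polyamine genes were mixed, with 3 of 15 higher and 3 lower (20% each), against 3.34% and 4.33% of all genes. The probe annotated as Amd2, a copy of the S-adenosylmethionine decarboxylase gene Amd1, was 2.999 in C26, 3.69 in C26 with FoxP1-shRNA and 7.10 in Sham, and which copy it read is uncertain. Smox, spermine oxidase, differed by -2.06 and Srm, spermidine synthase, by 1.30.

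The clock list was split, with 6 of 19 genes (31.6%) at least 2-fold higher in C26 and 4 (21.1%) lower. The shares over all genes were 3.34% and 4.33%. Arntl, which drives the positive limb with Clock, was 8.33 in C26, 5.57 in C26 with FoxP1-shRNA and 6.19 in Sham. Nfil3, a repressor at D-box sites, was 8.37 in C26, 7.25 in C26 with FoxP1-shRNA and 5.73 in Sham, and Cry2, of the negative limb, was 8.39, 7.42 and 6.16. The lowest was Dbp, a D-box activator, at 5.54 in C26, 8.27 in C26 with FoxP1-shRNA and 9.38 in Sham. Bhlhe41, a clock repressor, was 4.73 in C26, 6.45 in C26 with FoxP1-shRNA and 8.20 in Sham, and Per3 and Hlf differed by -1.47 and -1.46. The hour at which muscles were taken is not given in the sources used here, so time of day and tumour cannot be told apart for these genes.

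Genes for factors that muscle releases were lower in 9 of 31 cases (29%) and higher in 2 (6.45%). The shares over all genes were 4.33% and 3.34%. Angpt1, a growth factor of vessels, was 3.91 in C26, 6.22 in C26 with FoxP1-shRNA and 6.92 in Sham. Il15 was 4.49 in C26, 5.66 in C26 with FoxP1-shRNA and 6.84 in Sham, and Ostn, musclin, was 3.19, 3.76 and 5.74. Mss51, also on that list, differed by -3.23 but encodes a mitochondrial protein of muscle that is not secreted, and Fgf13, at -1.11, acts inside the cell.

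**Figure D5:**
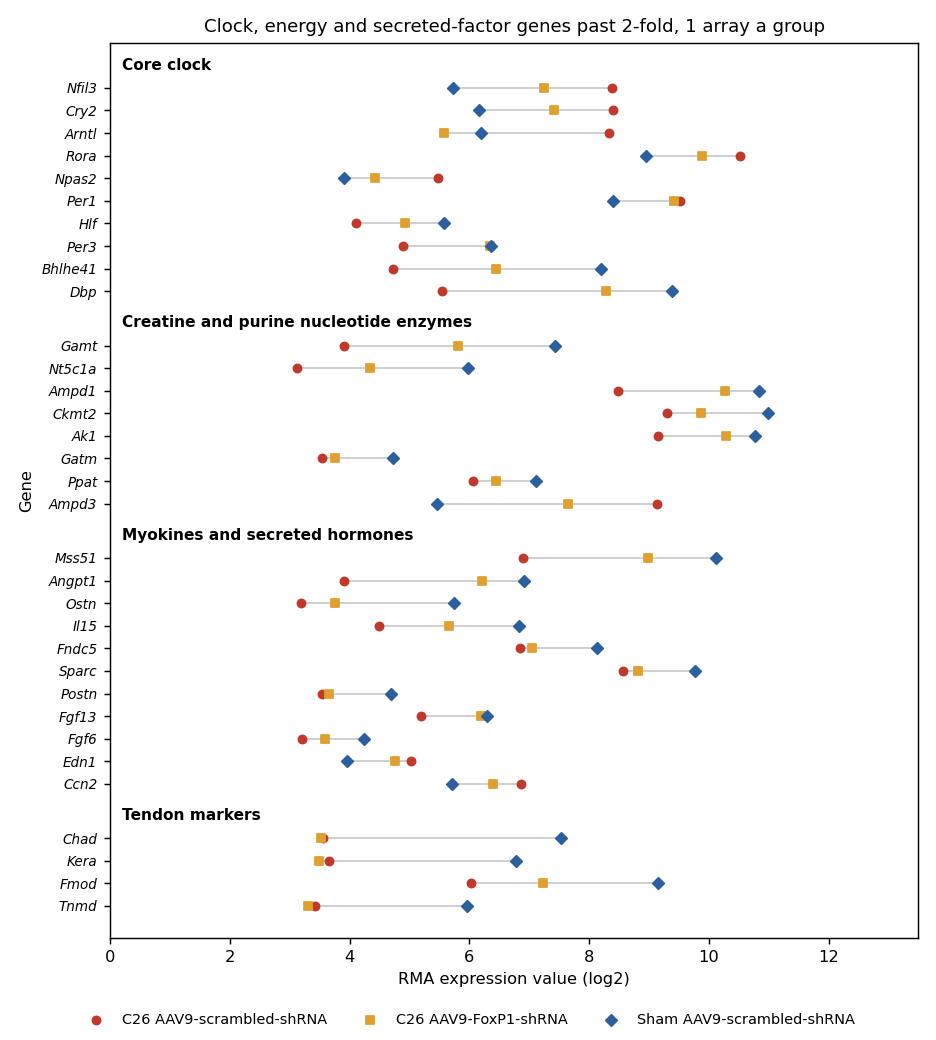
Expression values (horizontal axis, log2) on the arrays of C26 with scrambled-shRNA (red circles), C26 with FoxP1-shRNA (yellow squares) and Sham with scrambled-shRNA (blue diamonds) for members of 4 lists that were at least 2-fold different. Ampd3 runs opposite to Ampd1, and Chad, Kera and Tnmd lie low on both C26 arrays.

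Tendon markers were on balance lower, with a median of -2.54 over 7 genes, of which 4 were at least 2-fold lower. Chad, a cartilage and tendon matrix protein, was 3.56 in C26, 3.52 in C26 with FoxP1-shRNA and 7.53 in Sham, and Tnmd, tenomodulin, was 3.42, 3.31 and 5.96. Fmod, a collagen-binding proteoglycan, was 6.03 in C26, 7.23 in C26 with FoxP1-shRNA and 9.15 in Sham. The tendon transcription factors Scx and Mkx differed by -0.86 and 0.17, and the summed signal of the list was 555 in C26, 569 in C26 with FoxP1-shRNA and 1448 in Sham. How much tendon was dissected with each muscle was not tested.

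Other matrix genes went both ways. Of 33 matrix proteases and inhibitors 8 (24.2%) were higher in C26 and 1 (3.03%) lower, against 3.34% and 4.33% of all genes. Adamts9 and Mmp3 were 2.11 and 1.86 higher, and Serpinf1, an inhibitor of vessel growth, was 5.64 in C26, 6.36 in C26 with FoxP1-shRNA and 7.95 in Sham. Itgb6, an integrin chain that activates TGF-beta, was 3.38 in C26, 5.43 in C26 with FoxP1-shRNA and 7.65 in Sham, the second lowest difference among the genes named here. Of 18 endothelial markers 4 were higher, among them the junction protein Cldn5 at 1.98 and Plvap, which spans vessel wall openings, at 1.78, and 2 were lower, Aplnr and the VEGF receptor Kdr.

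Protein quality genes varied by class. Of 22 cytosolic heat shock genes 4 (18.2%) were lower and 1 (4.55%), Hspb7, was higher, against 4.33% and 3.34% of all genes. Hspa1b, an inducible HSP70, was 4.43 in C26, 4.32 in C26 with FoxP1-shRNA and 7.21 in Sham, and its near-identical copy Hspa1a, with which it may share probes, differed by -1.51. Lysosomal genes held both directions, with the cysteine protease Ctsl 2.39 and the cholesterol exporter Npc1 2.46 higher, and Ctss, the cathepsin of antigen-presenting cells, 6.06 in C26, 5.93 in C26 with FoxP1-shRNA and 7.82 in Sham. Of 30 autophagy genes 5 (16.7%) were higher and none lower, against 3.34% and 4.33% of all genes. The mitophagy receptor Bnip3 was the highest, at 1.65.

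Among ligases and adaptors linked to muscle atrophy, 7 of 35 (20%) were lower and 5 (14.3%) higher, against 4.33% and 3.34% of all genes. The lower ones held 5 members of the Asb family, Asb18 at -1.91 first, and the highest was Fbxo31, at 10.35 in C26, 9.89 in C26 with FoxP1-shRNA and 8.04 in Sham. Of 36 deubiquitinases 6 (16.7%) were higher and 2 (5.56%) lower, from Usp3 at 1.59 to Uchl3 at -2.29. The shares over all genes were 3.34% and 4.33%, so the lower count is near that share. The median value of this list was 7.41 in C26 and 6.90 in Sham. Among genes with mean values between 6 and 8 the shares were larger, at 7.51% higher and 8.01% lower.

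Genes of 3 muscle methyltransferases were low in C26. Mettl21e was 1.98 in C26, 3.59 in C26 with FoxP1-shRNA and 6.17 in Sham, Mettl21c was 2.67, 2.99 and 6.08, and Mettl11b was 3.87, 5.24 and 6.91. Of the other 22 members of the METTL family measured, Mettl1, a transfer RNA methyltransferase, was higher at 1.28 and none was at least 2-fold lower.

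At the junction of nerve and muscle, 4 of 28 genes (14.3%) were lower and 1 (3.57%) higher, against 4.33% and 3.34% of all genes. Sema6c, a semaphorin, was 5.45 in C26, 7.78 in C26 with FoxP1-shRNA and 8.48 in Sham. Ache, acetylcholinesterase, was 4.19 in C26, 5.85 in C26 with FoxP1-shRNA and 6.35 in Sham, and Chrne, the adult receptor subunit, differed by -1.52. Musk, the kinase that clusters the receptors, was 8.19 in C26, 6.82 in C26 with FoxP1-shRNA and 6.41 in Sham. The potassium channel subunit Kcng4 was 3.81 in C26, 5.14 in C26 with FoxP1-shRNA and 7.22 in Sham, while Abcc8, a subunit of ATP-sensitive channels, differed by 2.17.

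Iron genes included a pair with large opposed differences. Tfrc, the transferrin receptor, was 4.69 in C26, 5.06 in C26 with FoxP1-shRNA and 7.91 in Sham. Hmox1, haem oxygenase, was 6.97 in C26, 7.47 in C26 with FoxP1-shRNA and 5.02 in Sham. The other 17 iron genes included 1 past 2-fold, Steap3 at -1.48.

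Single genes outside these groups were also among the most different. Higher in C26 were Fah, the last enzyme of tyrosine breakdown, at 7.57 in C26, 6.04 in C26 with FoxP1-shRNA and 3.86 in Sham, and Egln3, an oxygen-sensing hydroxylase, at 10.00, 8.87 and 6.79. Setdb2, a SET-domain protein, was 7.57 in C26, 5.63 in C26 with FoxP1-shRNA and 4.50 in Sham, and Agt, angiotensinogen, was 8.74, 6.18 and 5.81. Lower in C26 were Slc37a4, the glucose-6-phosphate carrier, at 5.33 in C26, 7.47 in C26 with FoxP1-shRNA and 9.05 in Sham, and Trim7, a ligase that binds glycogenin, at 3.61, 5.13 and 7.46. Map3k7cl was 3.24 in C26, 5.20 in C26 with FoxP1-shRNA and 7.33 in Sham. In these lower genes the FoxP1-shRNA array lay between the others, which differs from the order seen for the GTPases, and the difference was not tested.

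The epithelial and carcinoma markers and the 10 reference genes held no 2-fold member. The other gene lists without one were branched-chain amino acid breakdown (22 genes), Notch signalling (19 genes) and Schwann cell markers (8 genes). Pericyte and smooth muscle markers (12 genes) and mast cell and eosinophil markers (10 genes) held none either. Of 529 microRNA genes 7 (1.32%) were higher and 8 (1.51%) lower, both below the 3.34% and 4.33% of all genes. Of 106 small nucleolar RNA genes 2 (1.89%) were higher and none was lower, with a median difference of 0.13.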

How the data were processed

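RNA of the tibialis anterior was read on Mouse Gene 2.0 ST arrays, which cover each gene with many short probes. The deposited log2 values were made by the authors with the RMA method (per the submitters' notes, package affy, version 1.36.1, in R version 2.15.1), which corrects background, makes the arrays' distributions alike and summarises probes to 1 value per gene. Probes were assigned to genes by the Brainarray Entrez mapping (the study's methods). A shift shared by most genes would be removed by this step. The genome build is not given in the sources used here.

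From these values, differences between arrays were computed with Python 3.11.15, numpy 2.4.6 and pandas 2.3.3, with no filter on dim genes, and the computation was tested on simulated data. Of the 25206 genes, 23185 had 1 symbol in the platform annotation, and 2021 are unnamed here. The number of arrays, 1 a group, limits the precision of every value, and no test was possible.

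The comparison, the gene lists and the rule for named genes were chosen with earlier results of these data known. Of the 78 lists, 66 were written first from textbook knowledge and 12 were added after the values had been seen: interferon regulatory factors, poly-ADP-ribose polymerases, interferons with their receptors, checkpoint genes, markers of T cells, dendritic cells and neutrophils, lipid droplet proteins, PPAR targets, hypoxia genes, small nucleolar RNA host genes and the METTL family. Of 1850 list entries 1727 had a value. Genes named are the 30 highest and 30 lowest with an ordinary symbol, above the median of at least 1 of the arrays compared and not already described for this comparison (this last limit does not hold for members of lists), and members of lists taken from the 6 largest of a list, those past 2-fold and those that define its role, of which the text names a part. The members Nr4a1, Jun, Crp, Fga, Fgb, Fgg and the receptor genes at small differences were named as such defining members. Promoters came from RefSeq (GRCm38.p6), 17452 of them matched by gene identifier, 1 per gene.

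Alternatives were centring on array medians or on reference genes, quantile normalization, cyclic loess with limma 3.58.1 under R 4.3.3, a filter on dim genes, ordinary symbols only, thresholds of 1.5-fold and 3-fold, and list means.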

Additional observations from a re-analysis of the deposited data

How the results depend on the processing

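The counts of genes at least 2-fold different kept within 1.5 times of 843 higher and 1092 lower with centring on array medians, quantile normalization, cyclic loess, the filter on dim genes and the restriction to ordinary symbols. Centring on the reference genes gave 548 higher and 1756 lower. At 1.5-fold, 2536 genes were higher and 2657 lower, and at 3-fold 279 were higher and 395 lower. The 18 lists called on their median include some that were added after the values had been seen. Of the 18, 14 were called the same way under all 7 alternatives tried for lists and none changed sign. The exceptions were interleukin-6 and STAT3 signalling (0.36), ribosome biogenesis (0.41) and small nucleolar RNA host genes (0.38) when centred on the reference genes, and PPAR targets, whose median of 0.51 was 0.498 with quantile normalization, 0.495 with cyclic loess and 0.29 with the reference genes. Counting lists of either kind, 15 of 77 changed their side of 0.5 with the reference genes, 8 with list means, 5 with the dim filter, 2 with quantile normalization and 1 with cyclic loess. Centring on array medians and the restriction to ordinary symbols changed none. The first moved differences by only 0.0144 and the second left list medians nearly as they were, so both are weak checks. None of the settings stands in for a second pool of mice. The reference gene setting lowers every difference by the same amount: 4 of its 15 were higher lists lost, and 11 came to be called lower, among them the citric acid cycle (-0.69), muscle fibre markers (-0.58), cytosolic heat shock (-0.58) and chemokines (-0.51). With the dim filter the medians were 2.33 for neutrophil markers, 2.11 for acute phase proteins and 1.56 for the glucocorticoid response. A gene passes that filter through either array, so genes high only in C26 are kept and the medians cannot rank the lists. The 77 lists leave out the reference genes themselves. No paired analysis was possible because each group is 1 array, and for the same reason no replicate could be left out. Dim genes seldom reached 2-fold, so a count of 0 in a list of dim genes is a weak statement.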
